A study of Mus musculus with 8 samples.

Results

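The genes analysed here encode the proteasome, its activators, its inhibitor and the chaperones that assemble it. Members were the non-control probes whose gene name begins with Psma, Psmb, Psmc, Psmd, Psme, Psmf or Psmg followed by a digit, without Psmc3ip, which is no proteasome gene. The rule used names alone and found 61 of the 55681 probes on the array, for 48 of 34761 gene names. In at least 1 group, 47 of these 48 genes were well above background on each array, and they were tested among 26456 genes. The exception was Psmb11, the thymus-specific catalytic subunit, whose probe was nowhere well above background. The samples were testes of C57BL/6 mice that lacked both copies of Ip6k1 (Ip6k1-/-, knockout, KO) at 26 and at 17 days postpartum (dpp), and of littermates with both copies (Ip6k1+/+, wild type, WT) at 26 and at 17 dpp. All were bred from heterozygous parents. Ip6k1 encodes inositol hexakisphosphate kinase 1, which makes inositol pyrophosphates. Each of the 4 groups had 2 arrays of total testis RNA, which the labels call biological replicates, hybridised with 1 dye (Cy3). The sources used here give neither the allele nor whether RNA of several animals was pooled.

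The proteasome is the protease that breaks down ubiquitin-tagged proteins. Its barrel-shaped 20S core is built of rings of alpha subunits, which form the gate, and of beta subunits, some of which cut proteins. The 19S regulator caps the barrel: its ATPase ring unfolds the substrate and its other subunits bind or remove ubiquitin. Cells can exchange subunits. Interferon-inducible beta subunits make the immunoproteasome, and male germ cells make a spermatoproteasome in which Psma8 replaces its close paralogue Psma7. The activator Psme4 (PA200), which can replace the 19S cap, is needed for normal spermatogenesis in mice.

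Signals are given as log2 of the processed spot brightness relative to the 75th percentile of the same array, so 0 means as bright as that percentile, and 1 unit is a doubling. A gene with several probes is represented by its brightest one, and levels of different probes are not compared. Differences were tested with limma over all 8 arrays, with p-values adjusted (Benjamini-Hochberg) over all genes tested and a threshold of 0.05. "Rose" and "fell" refer to genes past it. In whole testis, fewer cells of a type and less RNA per cell cannot be told apart. The Ip6k1 probe read 1.41 and 1.31 in KO at 26 dpp, 1.37 and 1.498 in KO at 17 dpp, 2.79 and 2.77 in WT at 26 dpp, and 2.20 and 2.30 in WT at 17 dpp, so KO and WT did not overlap.

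One array stood apart. Replicate 2 of KO at 26 dpp correlated at 0.863 with replicate 1 of its own group and at 0.839 and 0.873 with WT at 26 dpp, but at 0.918 to 0.948 with the 4 arrays at 17 dpp (Pearson r across all genes tested). Its median over 10 elongating spermatid markers was -3.75, against 6.43 on replicate 1 of its group, -4.76 and -4.46 in KO at 17 dpp, 5.85 and 7.32 in WT at 26 dpp, and -4.86 and -4.80 in WT at 17 dpp. Its median over 11 spermatocyte markers, 2.42, lay between those of the other 26 dpp arrays (3.49 to 3.69) and those at 17 dpp (0.44 to 1.18). The linear signals of 6 Leydig markers summed to 0.90 on it, lower than on any other array of either age (10.5 to 24.1). Those of 7 endothelium markers summed to 3.42, between the other 26 dpp arrays (3.14 to 3.29) and those at 17 dpp (4.61 to 6.28). Counts over all members and group differences that turn on this array are therefore also given without it. Calls by role class are from the fit over all 8 arrays and depend on this array too. Without it, more genes of every class except the inhibitor passed in WT, and most of those added were lower at 26 dpp. In addition, both WT arrays at 17 dpp carried epididymal transcripts: the linear signals of 11 epididymis markers summed to 22.4 and 70.0 there and to at most 0.146 on each of the other 6 arrays. All 8 arrays were on 1 slide, with 17 dpp in its first row and 26 dpp in the second, so array position cannot be told apart from age.

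Between 17 and 26 dpp, wild-type testes changed the make-up of their proteasome transcripts in both directions. Of the 47 genes tested, 11 were called (23.4%), against 45% of all genes on the array. Transcripts of Psma8, Psmc2, Psmc3, Psmd8, Psmd9, Psme4 and Psmf1 rose, which is 14.9% of the members against 18.8% of all genes. Those of Psma7, Psme1, Psme2 and Psmg3 fell, which is 8.51% against 26.1%. The median member differed by -0.39 between the ages, close to the median of all genes, -0.46. The share of proteasome genes called was thus below that of the whole array, and most subunits did not pass the test. Counted by overlap alone, both WT arrays at 26 dpp were above both at 17 dpp for 16 members (34%, against 32% of all genes) and below them for 26 (55.3%, against 56%).

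**Figure D1:**
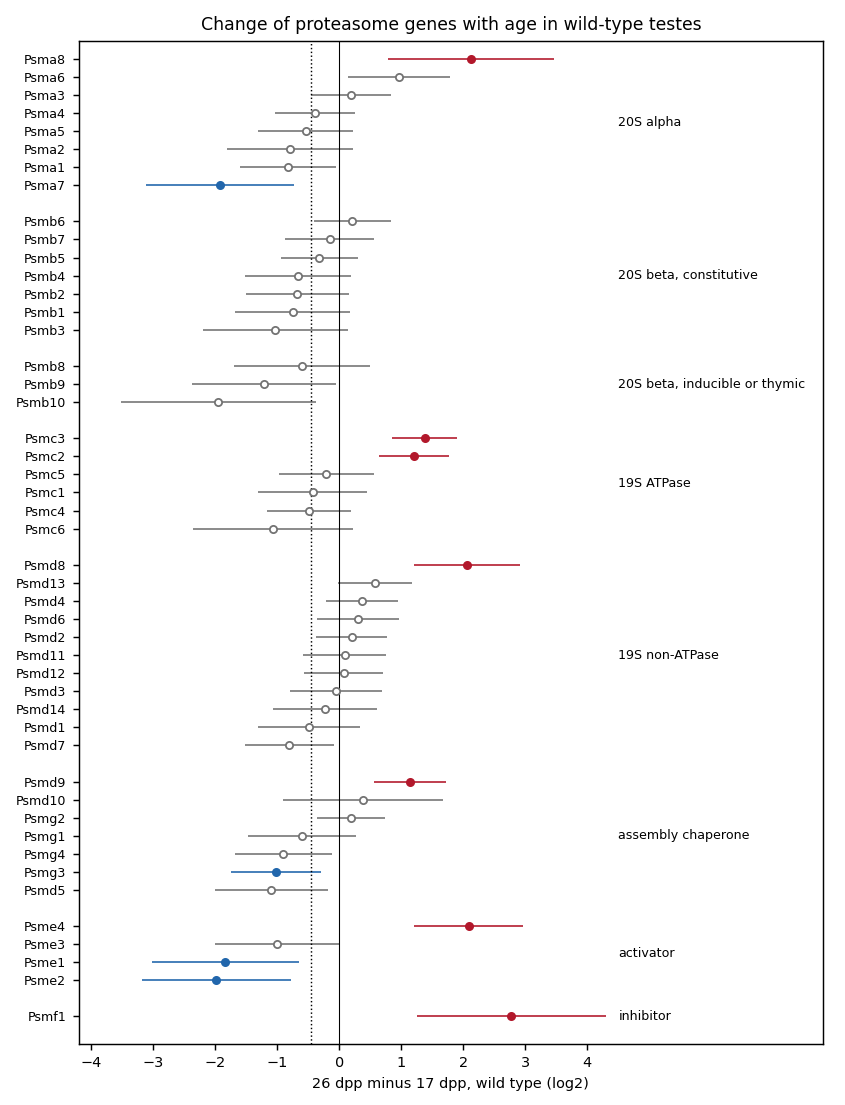
Difference between 26 and 17 dpp in wild-type testes (log2, x axis) for each of the 47 proteasome genes tested, grouped by role; bars are 95% intervals from limma, red and blue filled points are genes that rose and fell, open grey points did not pass the test, and the dotted line is the median of all genes (-0.46). The 11 filled points run from -1.98 for Psme2 to 2.78 for Psmf1.

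The count of called members was sensitive to single arrays. Without replicate 2 of KO at 26 dpp, which enters this comparison only through the shared estimate of spread, 31 members were called in wild type, 9 higher and 22 lower, against 69.2% of all genes, 25.3% higher and 44% lower; the counts were the same without replicate 1 of that group. Without either KO array at 17 dpp, 7 were called, all higher, against 26.1% of all genes. Without any 1 of the 4 WT arrays none passed in limma, where 9 to 12 had an unadjusted p below the threshold and 0 to 191 of all genes were called. The split by direction also moved with the scaling. After normexp and quantile normalization 8 rose and 10 fell, against 18.6% and 30.5% of all genes. After quantile normalization of the processed signal 7 rose and 9 fell, against 18.8% and 30.8%. With normexp and the same percentile 9 rose and 7 fell, against 18.4% and 26.6%, and with the authors' deposited values 7 rose and 5 fell, against 18.5% and 27.3%. With each array's median as the scale, the median of all genes was -0.58, and with normexp and quantile normalization -0.28.

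The alpha ring of the 20S core has 8 genes here. With all 8 arrays fitted, only the pair of paralogues at the same ring position passed the test, in opposite directions. Without replicate 2 of KO at 26 dpp, further alpha genes passed in WT in both directions, so the pair was not alone there. Psma8, the spermatoproteasome subunit, read 0.57 and 0.63 in KO at 26 dpp, -2.54 and -0.83 in KO at 17 dpp, 0.34 and 0.71 in WT at 26 dpp, and -1.72 and -1.48 in WT at 17 dpp. All 26 dpp arrays, including KO replicate 2, lay above all 17 dpp arrays. In WT the difference was 2.12 (SE 0.55, 95% interval 0.78 to 3.46, limma adjusted p = 0.0287), a 4.35-fold rise. Psma7, the constitutive paralogue, read 3.998 and 5.53 in KO at 26 dpp, 5.66 and 5.69 in KO at 17 dpp, 4.004 and 3.84 in WT at 26 dpp, and 5.85 and 5.85 in WT at 17 dpp. Here KO replicate 2 at 26 dpp sat near the 17 dpp level and the other 3 arrays at 26 dpp were low. Psma7 fell 3.81-fold in WT (difference -1.93, SE 0.49, 95% interval -3.12 to -0.74, limma adjusted p = 0.0275). The change of Psma8 exceeded that of Psma7 by 4.05 log2 units in WT.

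The other alpha subunits did not pass the test with all 8 arrays fitted. Psma6 had the next largest difference, 0.97 (95% interval 0.15 to 1.79, limma adjusted p = 0.0576), with 4.87 and 4.43 in KO at 26 dpp, 3.94 and 3.84 in KO at 17 dpp, 4.62 and 5.32 in WT at 26 dpp, and 4.20 and 3.81 in WT at 17 dpp. Its 26 dpp arrays were all above its 17 dpp arrays. The 8 alpha genes ranged from -1.93 to 2.12 with a median of -0.47.

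None of the 7 constitutive beta genes passed in WT with all 8 arrays fitted. Their differences between the ages ran from -1.03 to 0.21, with a median of -0.66, and 6 of 7 were below 0. The catalytic subunits Psmb6, Psmb7 and Psmb5 differed by 0.21, -0.15 and -0.32, the smallest 3 of the class. Psmb6 (the caspase-like site) read 6.49 and 6.98 in KO at 26 dpp, 6.45 and 6.47 in KO at 17 dpp, 6.58 and 6.65 in WT at 26 dpp, and 6.34 and 6.48 in WT at 17 dpp. Psmb7 (the trypsin-like site) read 2.68 and 3.26 in KO at 26 dpp, 2.97 and 2.83 in KO at 17 dpp, 2.80 and 2.56 in WT at 26 dpp, and 2.99 and 2.68 in WT at 17 dpp. Psmb5 (the chymotrypsin-like site) read 5.94 and 6.44 in KO at 26 dpp, 6.21 and 6.24 in KO at 17 dpp, 6.10 and 5.99 in WT at 26 dpp, and 6.35 and 6.38 in WT at 17 dpp. In all 3 the highest of the 8 arrays was KO replicate 2 at 26 dpp. Psmb3, a structural beta subunit with no protease site, had the largest difference of the class (-1.03, 95% interval -2.20 to 0.14, limma adjusted p = 0.12); it read 4.38 and 5.86 in KO at 26 dpp, 5.53 and 5.45 in KO at 17 dpp, 4.61 and 4.36 in WT at 26 dpp, and 5.48 and 5.55 in WT at 17 dpp.

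The inducible beta subunits, which replace the catalytic ones in the immunoproteasome, were all lower at 26 than at 17 dpp in WT, but none passed. Psmb10, which replaces Psmb7, read 1.65 and 3.62 in KO at 26 dpp, 3.78 and 3.10 in KO at 17 dpp, 1.61 and 1.45 in WT at 26 dpp, and 3.34 and 3.63 in WT at 17 dpp. The WT ages did not overlap, and the difference of -1.95 (95% interval -3.52 to -0.38) missed the threshold narrowly (limma adjusted p = 0.0503). Psmb9, which replaces Psmb6, read -1.89 and -0.79 in KO at 26 dpp, -0.07 and -0.85 in KO at 17 dpp, -1.73 and -1.77 in WT at 26 dpp, and -0.84 and -0.23 in WT at 17 dpp. Its WT difference was -1.21 (limma adjusted p = 0.0773), again without overlap between the WT ages. Psmb8, which replaces Psmb5, read -2.25 and -2.81 in KO at 26 dpp, -0.81 and -1.77 in KO at 17 dpp, -1.74 and -1.58 in WT at 26 dpp, and -1.45 and -0.65 in WT at 17 dpp, a WT difference of -0.61 (limma adjusted p = 0.29). Psmb8 was the 1 gene of the 3 for which KO replicate 2 at 26 dpp was the lowest array. The inducible subunit changed by -1.79, -1.42 and -0.29 relative to its constitutive counterpart for Psmb10, Psmb9 and Psmb8. Without KO replicate 2 at 26 dpp, Psmb10 and Psmb9 passed the test in WT.

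In the 19S ATPase ring, 2 of 6 genes rose and none fell with all 8 arrays fitted. Psmc3 read 7.70 and 7.59 in KO at 26 dpp, 6.54 and 6.598 in KO at 17 dpp, 7.82 and 7.91 in WT at 26 dpp, and 6.43 and 6.54 in WT at 17 dpp. Every array at 26 dpp was above every array at 17 dpp, and the WT difference was 1.38 (SE 0.21, 95% interval 0.86 to 1.90, limma adjusted p = 0.00985). Psmc2 read 6.42 and 6.16 in KO at 26 dpp, 5.29 and 5.33 in KO at 17 dpp, 6.42 and 6.65 in WT at 26 dpp, and 5.34 and 5.33 in WT at 17 dpp. It separated the ages in the same way and rose by 1.21 in WT (SE 0.23, limma adjusted p = 0.0145). The other ATPases leaned the other way: Psmc6 differed by -1.07 in WT (95% interval -2.36 to 0.22, limma adjusted p = 0.13), with 1.58 and 3.27 in KO at 26 dpp, 2.63 and 2.55 in KO at 17 dpp, 1.58 and 1.58 in WT at 26 dpp, and 2.61 and 2.69 in WT at 17 dpp.

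Of the 11 non-ATPase 19S genes 1 rose and none fell. Psmd8, a subunit of the lid, read 3.68 and 2.84 in KO at 26 dpp, 1.96 and 1.72 in KO at 17 dpp, 3.71 and 4.03 in WT at 26 dpp, and 1.97 and 1.64 in WT at 17 dpp. The ages did not overlap, and in WT it rose 4.18-fold (difference 2.06, SE 0.35, 95% interval 1.20 to 2.92, limma adjusted p = 0.0116). The class ranged from -0.81 to 2.06 with a median of 0.09. At its lower end was Psmd7, the lid partner of the deubiquitinase Psmd14, which read 3.11 and 3.78 in KO at 26 dpp, 3.86 and 3.67 in KO at 17 dpp, 3.11 and 3.12 in WT at 26 dpp, and 4.03 and 3.82 in WT at 17 dpp (WT difference -0.81, limma adjusted p = 0.0643). Psmd13, another lid subunit, read 3.37 and 3.23 in KO at 26 dpp, 3.35 and 2.96 in KO at 17 dpp, 3.44 and 3.45 in WT at 26 dpp, and 2.79 and 2.95 in WT at 17 dpp (WT difference 0.58, limma adjusted p = 0.0934).

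The activators, which dock on the ends of the core in place of the 19S cap, split sharply. Psme4 (PA200) read 1.72 and 0.82 in KO at 26 dpp, -0.33 and -0.55 in KO at 17 dpp, 1.53 and 1.95 in WT at 26 dpp, and -0.32 and -0.38 in WT at 17 dpp. The 26 dpp arrays were all above the 17 dpp arrays, with KO replicate 2 the lowest of them, and the WT rise was 4.25-fold (difference 2.09, SE 0.36, 95% interval 1.21 to 2.96, limma adjusted p = 0.0118). Psme1 and Psme2 encode the alternating subunits of the interferon-inducible PA28 ring, and both fell. Psme1 read 1.66 and 3.05 in KO at 26 dpp, 3.81 and 3.30 in KO at 17 dpp, 1.86 and 1.51 in WT at 26 dpp, and 3.54 and 3.50 in WT at 17 dpp. It fell 3.57-fold in WT (difference -1.84, SE 0.48, 95% interval -3.02 to -0.65, limma adjusted p = 0.0300). Psme2 read 3.52 and 4.99 in KO at 26 dpp, 5.58 and 5.18 in KO at 17 dpp, 3.58 and 3.31 in WT at 26 dpp, and 5.47 and 5.38 in WT at 17 dpp. It fell 3.95-fold in WT (difference -1.98, SE 0.49, 95% interval -3.18 to -0.78, limma adjusted p = 0.0261). In both genes 3 of the 4 arrays at 26 dpp were low and KO replicate 2 was nearer to the 17 dpp arrays. Psme3, which forms the nuclear PA28 gamma ring, differed by -1.01 (limma adjusted p = 0.0854) with 0.60 and 1.69 in KO at 26 dpp, 1.86 and 1.61 in KO at 17 dpp, 0.46 and 0.57 in WT at 26 dpp, and 1.76 and 1.27 in WT at 17 dpp. The change of Psme4 exceeded those of Psme1, Psme2 and Psme3 by 3.92, 4.07 and 3.09 log2 units in WT.

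Psmf1 encodes PI31, known as a proteasome inhibitor in the test tube. It had the largest rise of all members, 6.85-fold in WT (difference 2.78, SE 0.62, 95% interval 1.25 to 4.30, limma adjusted p = 0.0210). Its arrays read 1.14 and -0.64 in KO at 26 dpp, -1.18 and -1.65 in KO at 17 dpp, 0.75 and 1.43 in WT at 26 dpp, and -1.39 and -1.98 in WT at 17 dpp. The ages did not overlap, with KO replicate 2 at 26 dpp lying between the 17 dpp arrays and the other 26 dpp arrays.

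**Figure D2:**
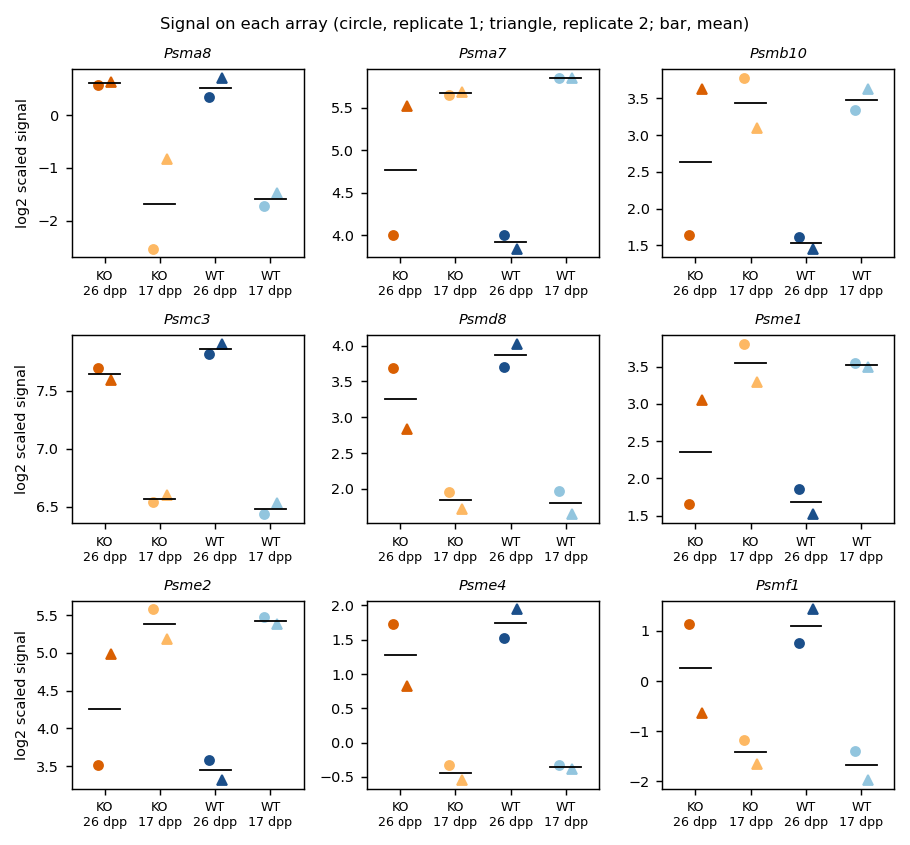
Log2 scaled signal (y axis, a separate range per gene) of 9 proteasome genes on each array of KO at 26 dpp, KO at 17 dpp, WT at 26 dpp and WT at 17 dpp; circles are replicate 1, triangles replicate 2 and bars group means (n = 2). For Psma8 and Psmc3 both KO arrays at 26 dpp lie with WT at 26 dpp, while for Psma7, Psmb10, Psme1 and Psme2 the KO replicate 2 triangle lies with or near the 17 dpp arrays.

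Promoters of 6 of the members called in WT are shown to place these genes in the genome and to let the upstream sequence of genes that rose and genes that fell be compared: Psme4, Psmd8 and Psmf1, which rose, and Psma7, Psme1 and Psme2, which fell. Each is the stretch of 250 bases before the RefSeq start on GRCm38.p6, written 5' to 3' on the strand of the gene. Psme2 has 2 RefSeq starts with overlapping stretches, of which 1 is shown. Capitals mark CCGGAAG, the core bound by ETS factors, and TGACG, the 5-base form of the cAMP response element, on either strand (CGTCA where the second is reversed).
Psme4, chr11:30771525-30771774, plus strand: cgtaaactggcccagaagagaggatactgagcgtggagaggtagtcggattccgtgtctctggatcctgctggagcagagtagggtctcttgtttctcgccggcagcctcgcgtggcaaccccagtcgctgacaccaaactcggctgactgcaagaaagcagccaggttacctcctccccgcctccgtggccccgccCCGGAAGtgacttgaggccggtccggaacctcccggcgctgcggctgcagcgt
Psmd8, chr7:29180674-29180923, minus strand: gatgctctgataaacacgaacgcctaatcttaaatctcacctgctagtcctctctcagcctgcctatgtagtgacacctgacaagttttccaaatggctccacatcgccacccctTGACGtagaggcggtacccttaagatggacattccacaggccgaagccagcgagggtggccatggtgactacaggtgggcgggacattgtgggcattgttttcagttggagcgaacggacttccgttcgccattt
Psmf1, chr2:151741311-151741560, minus strand: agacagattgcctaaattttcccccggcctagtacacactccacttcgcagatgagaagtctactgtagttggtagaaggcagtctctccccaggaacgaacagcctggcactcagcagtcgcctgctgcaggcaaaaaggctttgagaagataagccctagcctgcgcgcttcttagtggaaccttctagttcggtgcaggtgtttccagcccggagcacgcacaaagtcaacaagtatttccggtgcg
Psma7, chr2:180042465-180042714, minus strand: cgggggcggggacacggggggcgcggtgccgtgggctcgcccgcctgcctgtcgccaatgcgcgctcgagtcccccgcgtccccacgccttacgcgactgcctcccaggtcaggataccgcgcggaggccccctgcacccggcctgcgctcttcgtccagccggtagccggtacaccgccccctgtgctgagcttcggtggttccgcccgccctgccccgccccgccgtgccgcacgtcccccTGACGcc
Psme1, chr14:55578244-55578493, plus strand: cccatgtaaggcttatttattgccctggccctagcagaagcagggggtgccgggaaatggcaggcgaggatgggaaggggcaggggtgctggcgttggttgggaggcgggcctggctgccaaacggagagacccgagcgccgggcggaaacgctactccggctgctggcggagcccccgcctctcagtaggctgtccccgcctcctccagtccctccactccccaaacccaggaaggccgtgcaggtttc
Psme2, chr14:55591102-55591351, minus strand: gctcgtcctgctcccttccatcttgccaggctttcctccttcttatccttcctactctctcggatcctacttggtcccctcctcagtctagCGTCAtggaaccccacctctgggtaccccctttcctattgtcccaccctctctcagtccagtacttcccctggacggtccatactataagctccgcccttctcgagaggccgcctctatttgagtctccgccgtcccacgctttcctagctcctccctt
Among these 6 stretches, CCGGAAG was in that of Psme4 alone, and TGACG in those of Psmd8, Psma7 and Psme2. Neither was present in the windows of Psmf1 and Psme1.

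In all, 10 motifs were searched on both strands of 43 RefSeq promoters of 40 member genes, and the pair put in capitals was chosen with the shares already seen. CCGGAAG was in 13 of them (30.2%), against 6.91% of 32851 promoters of the same length. In this count of 13, a member gene with several RefSeq starts entered more than a single time. TGACG was in 17 (39.5%), against 17.8%, with the same match counted in both overlapping stretches of Psme2. The loose form of the nuclear respiratory factor 1 element (GCGCA, any base, GCGC) was in 6 (14%), against 3.74%, and the palindrome within it was in 1 (2.33%), against 0.782%. The interferon-stimulated response element (GAAA, any 2 bases, GAAA) was in 3 (6.98%), against 2.98%, and these were the promoters of Psmb3, Psmd4 and Psmd9. TGACNNNGC, the core of the antioxidant response element through which Nfe2l1 and Nfe2l2 act, was in 5 (11.6%), against 10.2%. For the remaining 4 the shares were 32.6% against 33.8% for CCAAT, 4.65% against 7.02% for TTCNNNGAA, 4.65% against 3.8% for AACNGTT, and 0% against 1.55% for TGACGTCA, which begins with TGACG. Member stretches had a median GC content of 57.6%, against 52.4% for all, and the shares were not matched for it. Both capitalised motifs contain CG. A match describes letters and was not tested as a binding site.

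Among the 7 assembly chaperones, which build the core and the base of the 19S cap and then leave, 1 rose and 1 fell in WT. Psmg3, a chaperone of the alpha ring, read 1.22 and 1.86 in KO at 26 dpp, 2.14 and 2.41 in KO at 17 dpp, 1.30 and 1.097 in WT at 26 dpp, and 2.17 and 2.26 in WT at 17 dpp. All arrays at 26 dpp were below those at 17 dpp, and the WT difference was -1.02 (SE 0.29, limma adjusted p = 0.0363). Psmd5, a chaperone of the 19S base, differed by -1.09 in WT (95% interval -2.002 to -0.19, limma adjusted p = 0.0543), with 1.06 and 2.07 in KO at 26 dpp, 2.30 and 2.15 in KO at 17 dpp, 1.06 and 1.07 in WT at 26 dpp, and 2.32 and 1.99 in WT at 17 dpp.

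For Psmd9 and Psmd10, also chaperones of the 19S base, the direction depended on the probe. The brighter Psmd9 probe (mm9 chr5:123691881-123691940) read 1.80 and 1.73 in KO at 26 dpp, 0.74 and 0.39 in KO at 17 dpp, 1.77 and 1.64 in WT at 26 dpp, and 0.49 and 0.65 in WT at 17 dpp. It rose by 1.14 in WT (SE 0.24, limma adjusted p = 0.0179). The dimmer probe (mm9 chr5:123698524-123698583) read -1.23 and -0.22 in KO at 26 dpp, -0.38 and -1.13 in KO at 17 dpp, -2.38 and -3.10 in WT at 26 dpp, and -1.53 and -1.13 in WT at 17 dpp. Tested as a feature of its own, which was added after these values were seen, it differed by -1.41 in WT (limma adjusted p = 0.0553). At 26 dpp this probe was higher on both KO arrays than on both WT arrays, by 2.01 (95% interval 0.85 to 3.18, limma adjusted p = 0.54), and by 1.51 with KO replicate 1 alone.

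The brighter Psmd10 probe (mm9 chrX:137483840-137486736, a span of 2897 bases for a 60-base probe) read 1.34 and -0.29 in KO at 26 dpp, 0.83 and 0.42 in KO at 17 dpp, 1.32 and 1.33 in WT at 26 dpp, and 1.02 and 0.85 in WT at 17 dpp. It differed by 0.39 in WT (limma adjusted p = 0.56). The dimmer one (mm9 chrX:137482968-137483027) read -1.38 and -0.44 in KO at 26 dpp, 0.65 and 0.38 in KO at 17 dpp, -1.22 and -1.48 in WT at 26 dpp, and 0.71 and 0.60 in WT at 17 dpp, and differed by -2.002 (limma adjusted p = 0.0133, tested as its own feature after the values were seen). So the arrays of the 2 ages were wholly apart for the dimmer probe, in the direction opposite to the brighter one. Of the 11 genes with more than 1 kept probe, the probes of Psmd9, Psmd10 and Psmb5 differed in sign, those of Psmb5 by only 0.33. For the other 8 genes the probes moved the same way and differed by 0.10 to 0.56. Which transcript each probe reads is not given in the files, and no exon or UTR is assigned here.

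**Figure D3:**
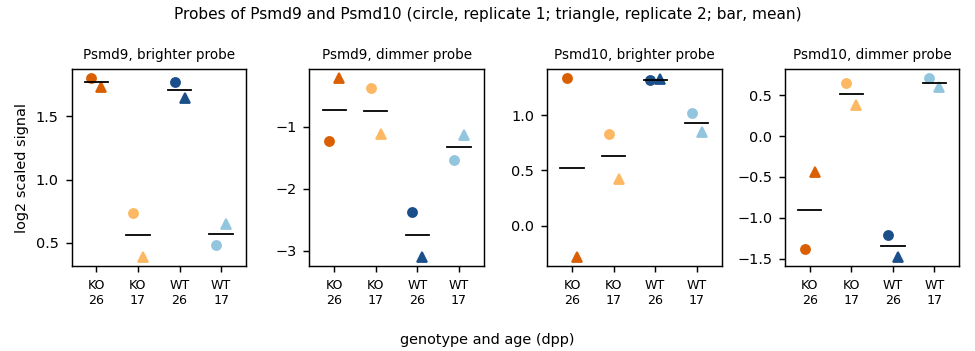
Log2 scaled signal (y axis, a separate range per panel) of the brighter and the dimmer probe of Psmd9 and of Psmd10 on each array, in KO at 26 dpp, KO at 17 dpp, WT at 26 dpp and WT at 17 dpp; circles are replicate 1, triangles replicate 2, bars means (n = 2). In WT the brighter Psmd9 probe is higher at 26 dpp (difference 1.14) and the dimmer one lower (-1.41), and the dimmer Psmd10 probe is lower at 26 dpp (-2.002).

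Marker genes moved with age in the same samples. In WT, 10 of 10 elongating spermatid, 10 of 11 round spermatid and 7 of 11 spermatocyte markers rose, against 18.8% of all genes. Falls were called for 8 of 11 Sertoli, 6 of 11 spermatogonial and 5 of 7 endothelium markers, against 26.1% of all genes. Of 10 interferon and antigen-presentation genes, 5 fell, and their linear signals summed to 25.8 and 55.0 in KO at 26 dpp, 55.7 and 53.0 in KO at 17 dpp, 25.9 and 22.2 in WT at 26 dpp, and 52.8 and 64.3 in WT at 17 dpp. On this list too, KO replicate 2 at 26 dpp lay with the 17 dpp arrays. Of the 14 of 16 leukocyte markers that were tested, 2 rose and none fell, and 2 rose and 5 fell without KO replicate 2 at 26 dpp. Their median WT difference was -0.26, and their signals summed to 11.995 and 12.6 in KO at 26 dpp, 18.4 and 17.1 in KO at 17 dpp, 17.6 and 18.0 in WT at 26 dpp, and 19.5 and 22.6 in WT at 17 dpp, so both WT sums at 26 dpp were below both at 17 dpp. Without KO replicate 2 at 26 dpp, more Sertoli, spermatogonial and interferon and antigen-presentation genes fell in WT, as did a larger share of all genes. Epididymis markers fell in 11 of 11 cases in WT, having been high on the WT arrays at 17 dpp only. The part of these cell types in the age differences was not tested.

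In knockout testes, 6 members rose between 17 and 26 dpp and none fell (10 had an unadjusted p below the threshold in limma, against 34.5% of all genes). Of all genes 15.5% were called, 7.58% higher and 7.94% lower. The 6 (12.8%) were Psma8, Psmc2, Psmc3, Psmd8, Psmd9 and Psme4, each also among those that rose in WT. The differences in KO were 2.29 for Psma8 (limma adjusted p = 0.0436), 0.98 for Psmc2 (limma adjusted p = 0.0412) and 1.08 for Psmc3 (limma adjusted p = 0.0292). They were 1.42 for Psmd8, 1.21 for the brighter probe of Psmd9 and 1.71 for Psme4 (limma adjusted p = 0.0468, 0.0292 and 0.0324). Psmf1 differed by 1.67 (95% interval 0.14 to 3.19) and did not pass (limma adjusted p = 0.12). The members that fell in WT did not pass in KO: Psma7 differed by -0.91, Psme1 by -1.198, Psme2 by -1.13 and Psmg3 by -0.74, with limma adjusted p from 0.14 to 0.23. The median member differed by -0.01 in KO, against -0.31 for all genes; the members' median lay between -0.09 and 0.04 under other scalings and background corrections, so its sign was not settled.

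These KO values turned on replicate 2 at 26 dpp. Without it, with the lone KO array at 26 dpp assumed to vary like the arrays of the other groups, 23 members were called in KO, 7 higher and 16 lower, against 59.8% of all genes, 21.4% higher and 38.4% lower, and the median member differed by -0.40. The 7 were the 6 above and Psmf1 (2.56). The 16 included Psmb10 (-1.79), Psmb9 (-1.43) and the 4 that fell in WT, with -1.67 for Psma7, -1.89 for Psme1, -1.86 for Psme2 and -1.06 for Psmg3. Without replicate 1 of KO at 26 dpp, 5 members were called in KO, against 19.1% of all genes. Without 1 KO array at 17 dpp or 1 WT array, calls in KO were fewer than with all arrays fitted, or absent. This held for the members and for all genes alike. The median member differed in KO by -0.01 without replicate 1 of KO at 17 dpp and by -0.05 without replicate 2.

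Where replicate 2 of KO at 26 dpp stood varied between the members. Its level can be placed on a line from the WT mean at 17 dpp (0) to the WT mean at 26 dpp (1). The 11 members called in WT were chosen by that WT difference, so these positions are a description. Psma8 stood at 1.05 and Psmd9, on its brighter probe, at 1.02, as far along as in WT at 26 dpp. On the dimmer Psmd9 probe the array read -0.22, above WT at 17 dpp (-1.53 and -1.13) and further from WT at 26 dpp (-2.38 and -3.10). Psmc3 stood at 0.80, Psmc2 at 0.69, Psme4 at 0.56 and Psmd8 at 0.50. Lower were Psmf1 at 0.37 and the 4 that fell in WT: Psmg3 at 0.35, Psme1 at 0.26, Psme2 at 0.22 and Psma7 at 0.17. Replicate 1 of KO stood between 0.88 and 1.08 for all 11. On replicate 2 the 4 members that fell in WT thus had the lowest positions of the 11, but Psmg3 (0.35) lay close to Psmf1 (0.37), which rose. The positions were computed under the main scaling only, and the level of the members on this array depended on the scaling. This order is therefore not settled.

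The same array was the highest of the 8 for 25 of the 47 members (53.2%), against 15.5% of all genes. These were 7 of 7 constitutive beta genes, 5 of 8 alpha genes, 4 of 6 ATPase genes, 6 of 11 non-ATPase 19S genes and 3 of 7 assembly chaperones. It was the lowest for 2 members, Psmb8 and Psmd10 (4.26%), against 13.8% of all genes. For Psmd10 this held on the brighter probe only: on the dimmer one it read -0.44, above the other 26 dpp arrays (-1.48 to -1.22). The count of 25 rested in part on the scaling: with quantile normalization it was 14 (29.8%), against 12.9% of all genes after background correction by normexp and 12.8% on the processed signal. With the array median as the scale it was 30 (63.8%), against 24% of all genes. The median member on this array was 0.34 above the mean of the 4 arrays at 17 dpp, against -0.09 for all genes, and 0.60 above WT at 26 dpp, against 0.19 for all genes. Above the 17 dpp mean it was 0.12 after normexp and quantile normalization, against -0.07 for all genes, 0.13 after quantile normalization of the processed signal, against -0.11, and 0.50 with the array median as the scale, against 0.07. Of the array's own measures, 59.8% of its spots were well above background, against 63.1% to 65.6% on the other arrays. The cause was not tested.

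Knockout and wild type were then compared at each age. At 17 dpp no member was called in limma (0 had an unadjusted p below the threshold, against 1.45% of all genes); of all genes 0.0945% were called. The differences between KO and WT lay between -0.31 and 0.29 with a median of -0.01, against 0.02 for all genes. Their 95% intervals reached from -1.61 to 1.79 at the widest, so differences of that size could not be told from 0 with 2 arrays a group. KO was above WT without overlap for 7 members (14.9%), against 16.1% of all genes, and below for 6 (12.8%), against 12.8%. Psma8 and the activators Psme1, Psme2, Psme3 and Psme4 were among the members that did not pass.

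At 26 dpp no member was called either, with 1 unadjusted p below the threshold (Psmg4), against 2.43% of all genes; of all genes 0.00756% were called. KO was above WT without overlap for 10 members (21.3%), against 15.8% of all genes, and below for 6 (12.8%), against 16.5%. KO was above WT for 37 of 47 members, with a median of 0.30, against 0.09 for all genes, and all 7 constitutive beta genes were on that side (0.12 to 0.64). With the array median as the scale the medians were 0.44 for the members and 0.23 for all genes. With KO replicate 1 alone, the median was -0.004, against -0.02 for all genes; 20 members were above and 27 below WT, none was called, none had an unadjusted p below the threshold (2.08% of all genes had), and 0.0378% of all genes were called. With KO replicate 2 alone, the median was 0.60, against 0.19 for all genes, and 37 members were above and 10 below WT. The shift of the members toward higher signal in KO at 26 dpp was therefore present on 1 of the 2 KO arrays. KO replicate 1 differed from the WT mean by -0.59 (Psmb8) to 0.49 (Psmg4).

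**Figure D4:**
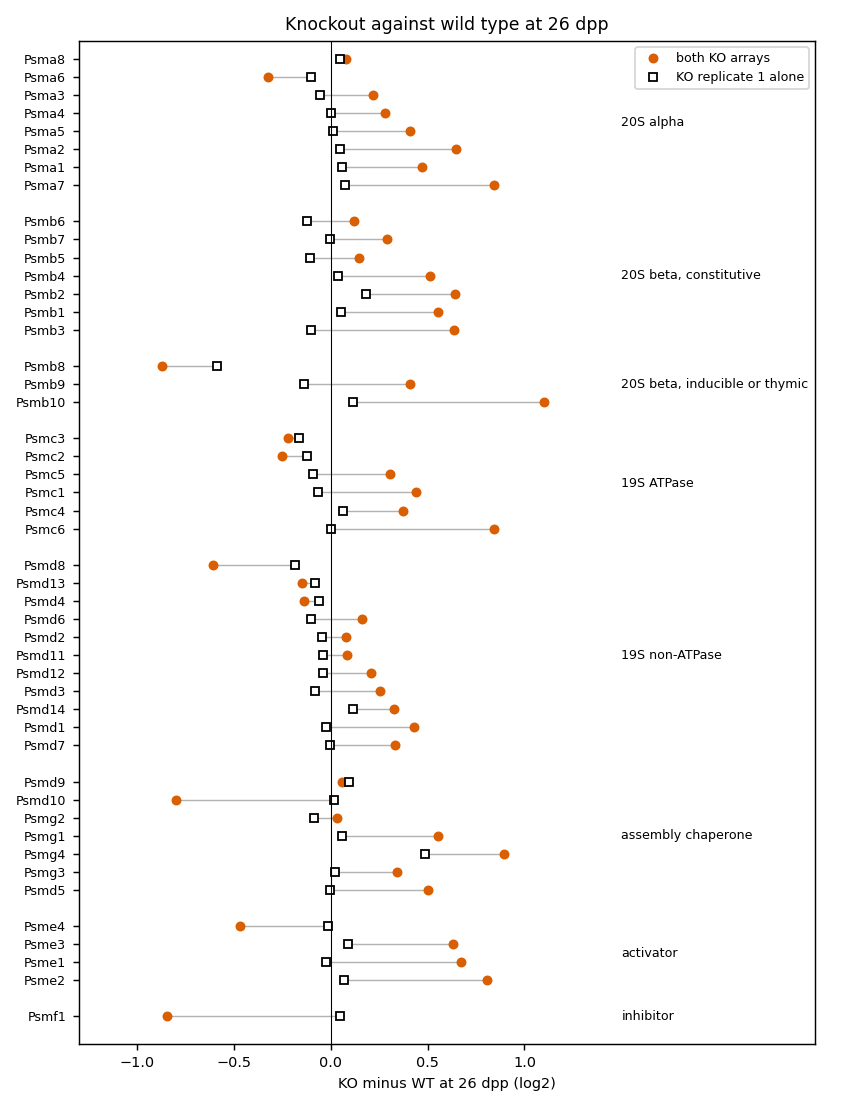
Difference between KO and WT at 26 dpp (log2, x axis) for each of the 47 proteasome genes tested, grouped by role; filled circles use both KO arrays and open squares KO replicate 1 alone, each against the mean of 2 WT arrays. The circles have a median of 0.30 and the squares of -0.004, and none of the 47 passed the test in either case.

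Psmg4, which helps to assemble the alpha ring, was the 1 member higher in KO than in WT without overlap at both ages (2.13%, against 2.6% of all genes), and none was lower at both (0%, against 1.74%). It read 1.70 and 2.52 in KO at 26 dpp, 2.25 and 2.37 in KO at 17 dpp, 1.24 and 1.19 in WT at 26 dpp, and 2.00 and 2.23 in WT at 17 dpp. The KO array nearest to WT was above it by little at 17 dpp and by more at 26 dpp. The difference at 26 dpp was 0.90 (95% interval 0.11 to 1.69, limma adjusted p = 0.53), and 0.49 with KO replicate 1 alone (95% interval -0.01 to 0.98). Psmg4 falls outside the rule for named genes and was chosen after its values were seen.

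Averaged over both ages, KO and WT differed by a median of 0.15 over the members, against 0.05 for all genes. No member was called in limma, none had an unadjusted p below the threshold (2.17% of all genes had), and 0% of all genes were called. For the difference of the knockout effect between the ages the median was 0.29, against 0.08 for all genes; again no member was called, none had an unadjusted p below the threshold (1.9% of all genes had), and 0% of all genes were called. Without KO replicate 2 at 26 dpp these medians were -0.001 and -0.04, and without KO replicate 1 at 26 dpp 17 members were called in each comparison, against 30.1% and 32.8% of all genes. A different change of the members with age in KO and WT was thus not detectable with all 8 arrays. The change of Psma8 exceeded that of Psma7 by 3.19 log2 units in KO and by 4.05 in WT, and by 3.93 in KO without replicate 2 at 26 dpp.

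Genes around the proteasome that the name rule does not cover were read from a list of 34, of which 33 were tested. In WT 9 rose and 8 fell between 17 and 26 dpp, against 18.8% and 26.1% of all genes, and in KO 2 rose and 4 fell, against 7.58% and 7.94%. Without KO replicate 2 at 26 dpp, 12 rose and 17 fell in WT, against 25.3% and 44% of all genes, and 11 rose and 16 fell in KO, against 21.4% and 38.4%. Ubqlnl, a ubiquilin-like gene, read -2.60 and -7.22 in KO at 26 dpp, -7.42 and -7.37 in KO at 17 dpp, -3.24 and -1.02 in WT at 26 dpp, and -7.57 and -7.67 in WT at 17 dpp. It was not well above background on any 17 dpp array. Against the lowest signal that is well above background, it was at least 11.9-fold higher at 26 dpp in WT (limma adjusted p = 0.0318).

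Among those that fell were Nfe2l2 and Ubqln2. Nfe2l2 encodes the transcription factor Nrf2, an activator of proteasome genes under oxidative stress. It read 1.71 and 0.16 in KO at 26 dpp, 3.48 and 3.37 in KO at 17 dpp, 1.65 and 1.42 in WT at 26 dpp, and 3.77 and 3.41 in WT at 17 dpp. It fell by 2.05 in WT (SE 0.51, limma adjusted p = 0.0258) and by 2.49 in KO (limma adjusted p = 0.0303), with KO replicate 2 at 26 dpp the lowest array. Without that array it fell by 1.72 in KO (limma adjusted p = 0.00370). Ubqln2, a widely expressed ubiquilin and one of the shuttles that bring ubiquitin-tagged proteins to the proteasome, read -1.10 and -0.46 in KO at 26 dpp, 0.85 and 0.77 in KO at 17 dpp, -1.196 and -1.29 in WT at 26 dpp, and 0.86 and 0.52 in WT at 17 dpp. It fell by 1.93 in WT (limma adjusted p = 0.00962) and by 1.59 in KO (limma adjusted p = 0.0268; without KO replicate 2 at 26 dpp it fell by 1.91, limma adjusted p = 0.00261), and in both genotypes all arrays at 26 dpp were below those at 17 dpp.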

How the data were processed

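Total RNA of 8 mouse testes samples was read on 1-colour arrays, 2 per genotype and age. The submitters' processing notes name Agilent Feature Extraction, whose version per the file headers is 11.5.1.1. The authors deposited processed, mean and background signals as linear intensity values, unscaled between arrays. The authors' deposited value table holds log2 values whose scale and centring no source states. Its columns followed log2 processed signal (r at least 0.9999 across probes) and had medians of -3.62 and -3.84 in KO at 26 dpp, -3.67 and -3.63 in KO at 17 dpp, -3.59 and -3.64 in WT at 26 dpp, and -3.69 and -3.69 in WT at 17 dpp; it was used as an alternative. A 1-colour value has no direction.

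Control spots and outlier flags (103 to 200 spots per array) were left out; 0 spots were saturated. Values are log2 processed signal minus that of the array's 75th percentile, averaged over spots of a probe. Probes that each array of some group flagged as well above background were kept (37810), and a gene took its probe of highest mean signal. Symbols came from RefSeq by accession or synonym where they matched. limma 3.58.1 (R 4.3.3) fitted 1 mean per group over all arrays, with 4 residual degrees of freedom, two-sided, and was tested on simulated data. Python 3.11.15 was used for summaries. Intervals cover the spread between these arrays, and 2 per group limit the precision. A bound ("at least N-fold") sets the bright group's mean against, on each array, the higher of the lowest signal well above background and the dim probe's own.

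The members, the role classes, the pathway and marker lists, the motifs and the tests were chosen with earlier results of these data known. Values on every array are given for Psma8, Psma7, the catalytic and inducible beta subunits, the activators, Psmf1, the 3 members of largest WT age difference in each of the alpha, beta, ATPase, non-ATPase and chaperone classes, and the 4 pathway genes of largest WT age difference, of which 1 is not reported here; members called in WT are also named. Alternatives varied background correction, scaling, source of values, filter, probe choice, variance model, weights, arrays fitted, the replicate block and single arrays. Probe coordinates are those of the files (mm9); promoters are RefSeq's (GRCm38.p6). Probe sequences and proteins were not used here.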

Additional observations from a re-analysis of the deposited data

How the results depend on the processing

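The count of members called in the WT age comparison (11) was 18 after normexp and quantile normalization (49.2% of all genes), 32 with array weights (74.6%) and 30 with only the 4 WT arrays fitted (70.2%). In KO (6) it was 3 without a filter on dim probes (9.77%), and 0 with array weights, with only the KO arrays fitted and with the replicate block (0.2%, 0% and 3.55% of all genes; 5, 6 and 7 members had an unadjusted p below the threshold in limma). With the array median as the scale the WT median of the members was -0.51. Across the other settings that keep all arrays these counts stayed within 1.5 times. The WT age difference of Psmd9 was -0.14 as the mean of its probes and -1.41 on its other probe, and that of Psmd10 was -2.002 on its other probe. KO replicate 2 at 26 dpp was the highest array for 14 members under either quantile normalization. The cause of these shifts was not tested. When single arrays were left out, the share of all genes called mostly moved up and down with the count of members called. An exception was the KO age comparison without replicate 1 of KO at 26 dpp, where the count and the share moved in opposite directions. Most swings in these counts were thus also seen over all genes. Leaving out 1 array at a time gave 0 to 31 called in WT, 0 to 23 in KO, 0 to 0 for KO against WT at 17 dpp, 0 to 26 at 26 dpp, and 0 to 17 for the mean of both ages and for the difference of the effects. The members' medians then ran from -0.45 to -0.33 in WT, -0.40 to 0.33 in KO, -0.02 to 0.03 for KO against WT at 17 dpp, -0.004 to 0.60 at 26 dpp, -0.001 to 0.32 for the mean of both ages and -0.036 to 0.57 for the difference of the effects. Of the calls on single named members under these alternatives, 222 held, 117 kept their direction without passing and 1 turned. Samples of the same replicate number share only that number: their deviations from the group means correlated at -0.40 to 0.11 across pairs of groups. With the replicate block 9 members were called in WT (33.2% of all genes), and 0 in each comparison of genotypes.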
